A study of Mus musculus with 15 samples.

Results

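The Myc and Max network is a small family of transcription factors that pair with the common partner Max. The 8 genes described here are Myc, Max, Mxd1, Mxd3, Mxd4, Mxi1, Mnt and Mga. They were found by gene symbol in GENCODE release M21, and all 8 had 1 identifier each among the 55536 annotated genes of the count table. The rule used no measured value. All 8 passed the filter on low counts.

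The series asked how costimulation changes RNA in CD8+ T cells that meet antigen in vivo. Naive T cells of OT-I mice, which carry a transgenic receptor for the ovalbumin peptide SIINFEKL on a Rag-deficient background, were transferred into C57BL/6J mice. Ag recipients received the peptide with a control rat IgG. Ag+Costim recipients received the same peptide together with agonist antibodies to OX40 (CD134) and 4-1BB (CD137). Transferred CD8+ cells were sorted from spleen and lymph nodes, at day 4 by the labels and somewhat earlier by the study's methods. Mice of both sexes were used. The animals behind each library, and their ages, are not told apart in the labels. The receptor is the same in every transferred cell, so both groups represent 1 specificity, and recipients of both groups had received the antigen. Each group has 5 libraries, and 15 libraries are labelled in all. Counts of the Naive cells were not analysed here. The labels do not say that the libraries are separate mice, whereas the study describes them as individual biological replicates and in 1 place as mice, so p-values measure the spread between these libraries.

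Myc drives growth and ribosome production after T cell activation. It binds DNA as a dimer with Max, most often at the E-box CACGTG, and recruits coactivators. The Mxd proteins, Mxi1 and Mnt also pair with Max and bind the same sites, but bring in Sin3 and histone deacetylases, so they oppose Myc. Mga, the largest member, has a T-box as well as the Max-pairing domain and belongs to a Polycomb complex called PRC1.6. In many tissues, Mxd4 and Mxd1 mark resting or differentiating cells, while Mxd3 is found in dividing ones.

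In mm10, Myc lies on chr15:61985391-61990374 on the plus strand, Max on chr12:76937269-76962201 on the minus strand and Mga on chr2:119897228-119969581 on the plus strand. The genes of the Sin3-binding repressors are Mxd1 (chr6:86647042-86669161, minus strand), Mxd3 (chr13:55325168-55329823, minus strand), Mxd4 (chr5:34173883-34187720, minus strand), Mxi1 (chr19:53310518-53375810, plus strand) and Mnt (chr11:74830920-74845725, plus strand). Mxd3 shares 105 exon bases with Prelid1, Mxd4 shares 514 with Gm42846 and Mxi1 shares 194 with Gm10197, each on the opposite strand. The library kit does not keep strand, so reads of these stretches cannot be assigned to 1 gene with certainty.

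The E-box was looked for in the promoters of the members, since it is the site that Max dimers bind. Promoters were taken from RefSeq (GRCm38.p6, 250 bases before to 50 bases after the gene start). Of the 7 members with an entry, Max, Mxd4 and Mnt held CACGTG, and Mxd1, Mxd3, Mxi1 (3 entries) and Mga did not. Myc had no entry. Of all 32851 promoters, 2349 (7.15%) held it. The motif reads the same on both strands. The 3 windows below are 30 bases each, with the E-box in capitals. They lie at chr12:76962234-76962263 (minus strand), chr5:34187912-34187941 (minus strand) and chr11:74830789-74830818 (plus strand), and the motif begins 3, 219 and 123 bases before the RefSeq gene start, respectively. RefSeq starts can differ from the GENCODE gene ends given above, as that of Max does.
Max promoter: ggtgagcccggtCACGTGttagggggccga
Mxd4 promoter: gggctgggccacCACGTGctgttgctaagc
Mnt promoter: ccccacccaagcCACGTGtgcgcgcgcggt

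The transcripts of Max, Mga and Mxi1 differ by exons whose use is described further on. The 27-base exon of Max at chr12:76961263-76961289 (minus strand) is coding and adds 9 codons near the start of the protein. It is part of Max-202, with 480 coding bases, and absent from Max-201, with 453. It is printed in capitals, followed by the join that Max-201 makes in its place, with the bases after the join in capitals.
Max exon: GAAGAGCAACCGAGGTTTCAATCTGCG
Max skipping join: gaggtggagagcgacGCTGACAAGCGGGCT
The long Mga exon at chr2:119941222-119941845 (plus strand) has 624 bases. Its first 30 bases are shown in lower case, with the join in Mga-202, which lacks it.
Mga exon start: cagcgcggccctctcctggtggtgtgttca
Mga skipping join: caaaaaggccaattgAAAATGCCCCTCAAA
Mxi1 has alternative first exons, both of which begin the protein. Mxi1-203 starts at chr19:53329413-53329720 and has 684 coding bases, 73 of them in the first exon. Mxi1-201 starts further upstream and has 885 coding bases, 274 of them in its first exon. The last 30 bases of each first exon, at chr19:53329691-53329720 and chr19:53310944-53310973, are shown in lower case.
Mxi1-203 first exon end: ccgcggagtttttggagcgcagggagcgag
Mxi1-201 first exon end: acctggagcagatcgagaaagaaaacaaaa

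The Ag libraries held 59.6 to 449.4 M (mega) estimated counts and the Ag+Costim libraries 332.3 to 639.1 M, which are totals derived from coverage and not numbers of reads. Every member had at least 408 such counts in every library. The Ag libraries differed among themselves. Ag replicates 1, 3 and 4 had 40441 to 51778 genes with a count, and Ag replicates 2 and 5 had 21779 and 20714, against 28727 to 30340 in Ag+Costim. CPM stands for counts scaled to a common library total, with TMM factors. The mean log2 CPM of 32 cell cycle genes was 5.47 and 5.53 in Ag replicates 1 and 4, 7.71 in Ag replicate 3, 8.40 and 8.42 in Ag replicates 2 and 5, and 8.41 to 8.67 in Ag+Costim. All 7 T cell and CD8 markers (Cd3d, Cd3e, Cd3g, Cd2, Cd8a, Cd8b1 and Trac) were above 1 CPM in both groups, with a summed level of 3383 to 6678 CPM in Ag, against 4481 to 5433 CPM in Ag+Costim. Markers of other cells were present too. The 7 B cell markers summed to 716 to 1777 CPM in Ag, against 639.7 to 982.3 CPM in Ag+Costim. The 8 myeloid markers summed to 124.6 to 300.2 and 203 to 305.1 CPM. The 6 erythroid markers reached 1103 CPM in Ag replicate 3, 14.71 to 125.7 CPM in the other Ag libraries and 3.80 to 39.79 CPM in Ag+Costim. The 2 CD4 T cell markers (0.11 to 5.68 and 0.15 to 1.64 CPM) and the 2 NK cell markers (2.09 to 16.41 and 0.47 to 2.16 CPM) were low. No marker was at 0 in every library. Their part in the results was not tested. In bulk RNA, fewer cells of a type and less RNA per cell cannot be told apart.

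Over all 24262 genes tested with edgeR's quasi-likelihood test, 0 (0%) had a Benjamini-Hochberg (BH) adjusted p under 0.05, whereas 4501 (18.6%) had an unadjusted p under 0.05. DESeq2 called 8046 (22.3%) of the 36117 genes to which it gave an adjusted p. Of the 24262, limma voom, which gave each library its own weight, called 12632 (52.1%). Accordingly, no member passed the main test. Of the 8 members, 3 (Myc, Max and Mxd4) had an unadjusted p under 0.05. DESeq2 called 2 members (Myc and Mxd4) and limma voom called 5 (Myc, Max, Mxd3, Mxd4 and Mga). These are 25% and 62.5% of the members, close to the shares of all genes that the same tools called.

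Myc had the clearest separation between the groups. Its level was 58.1, 70.9, 49.6, 46.6 and 80.2 CPM in Ag replicates 1 to 5 and 96.5, 98.3, 99.9, 101.2 and 108.9 CPM in the Ag+Costim libraries. All 5 Ag libraries lay below all 5 Ag+Costim libraries, with means of 61.1 ± 14.3 and 101.0 ± 4.8 CPM (SD, n = 5), which is 1.65-fold. Of all genes tested, 1086 (4.48%) were higher in Ag+Costim without overlap and 273 (1.13%) were lower without overlap. Myc was the only member among these genes. The share was larger among the 8626 genes whose mean reached 10 CPM, Myc included. Of those, 976 (11.3%) were higher without overlap and 19 (0.22%) were lower without overlap. The log2 fold change of Myc was 0.72 ± 0.16 (SE) by edgeR, with an adjusted p of 0.15. DESeq2 gave 0.61 with an adjusted p of 0.0011, and limma voom gave 0.96 with an adjusted p of 3.14e-05. The 2 Ag libraries with a cell cycle level close to that of Ag+Costim, replicates 2 and 5, had the highest Myc of their group with TMM factors. With total counts the highest was Ag replicate 1 at 80.97 CPM, with Ag replicates 2 and 5 at 64.3 and 66.3 CPM. On both scales every Ag library lay below every Ag+Costim library (89.7 to 99.0 CPM with total counts). In fits added after the data were seen, the log2 fold change was 0.60 without Ag replicates 1 and 4 (edgeR adjusted p = 0.19) and 1.09 without Ag replicates 2 and 5 (edgeR adjusted p = 4.04e-04, in a fit that called 48.8% of all genes).

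Max, the partner of all other members, also had a higher mean in Ag+Costim. It stood at 45.6, 36.5, 20.6, 82.5 and 19.9 CPM in Ag and at 89.2, 88.6, 102.5, 76.1 and 82.4 CPM in Ag+Costim. Means were 41.01 ± 25.6 and 87.8 ± 9.8 CPM. Ag replicate 4 was within the Ag+Costim range, and the other 4 Ag libraries lay below it. The log2 fold change was 1.097 ± 0.357 (SE), with an edgeR adjusted p of 0.23, a DESeq2 adjusted p of 0.055 and a limma voom adjusted p of 0.037. Leaving out Ag replicate 4, the only Ag library in that range, removed the overlap, as this choice implies. In that fit, 6.85% of all genes did not overlap. The log2 fold change of Max was then 1.53, with an edgeR adjusted p still above the threshold. Over all fits with 1 library left out it was 0.93 to 1.53, none with an edgeR adjusted p under the threshold.

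**Figure D1:**
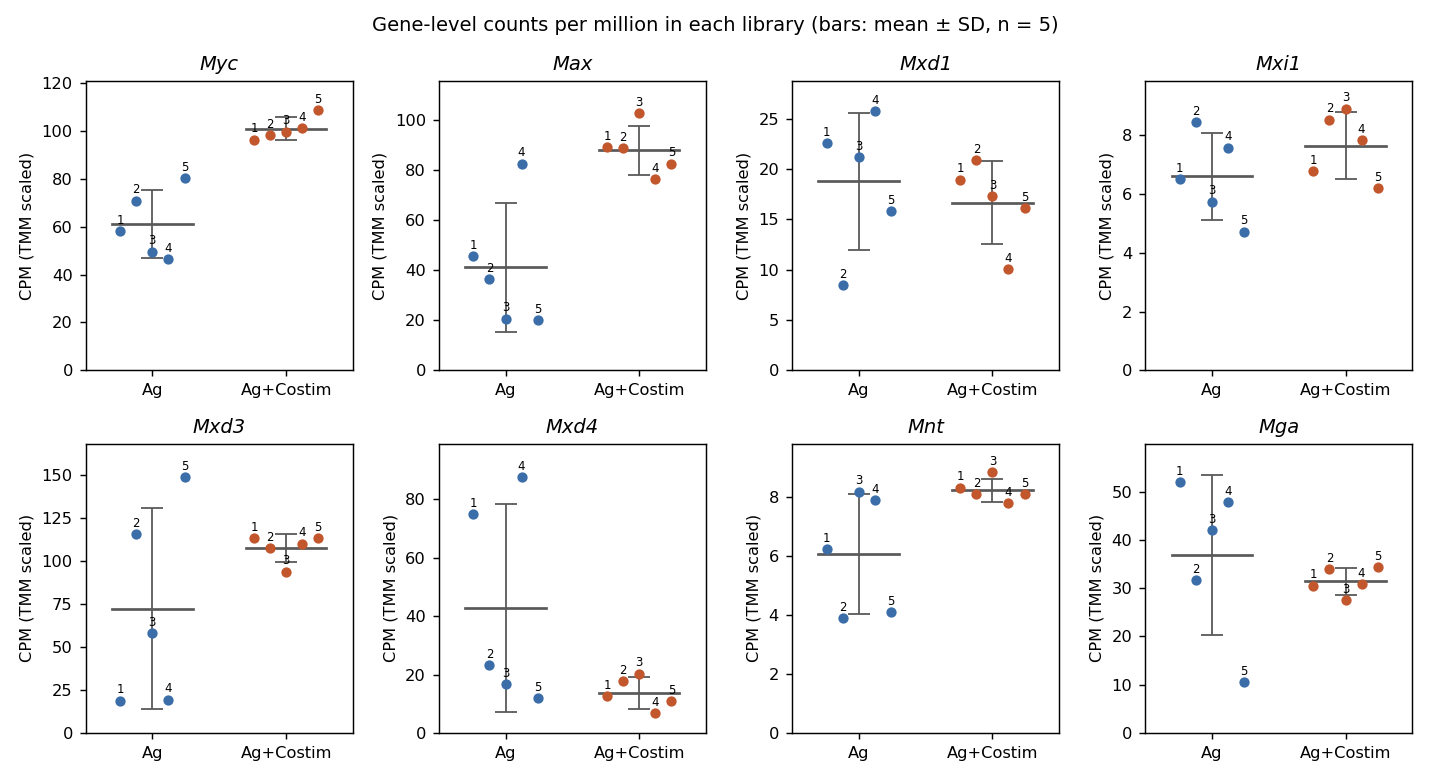
Each point is 1 library, numbered by replicate, on a linear axis of CPM scaled with TMM factors, and the bars give the mean and SD of 5 libraries. Myc is separated between the groups, Mxd3 and Mxd4 spread widely among the Ag libraries, and the Ag+Costim libraries lie close together for all members but Mxd1 and Mxd4.

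Mxd4 and Mxd3 were the least even members within Ag, with coefficients of variation of 83.1% and 80.9%, against 22.3 to 62.4% for the other 6. Mxd4 stood at 75.0, 23.3, 16.6, 87.6 and 11.8 CPM in Ag and at 12.6, 17.6, 20.3, 6.8 and 10.98 CPM in Ag+Costim. Ag replicates 1 and 4 were far above the rest, Ag replicate 2 was a little above the Ag+Costim range, and Ag replicates 3 and 5 were within it. The log2 fold change was -1.65 ± 0.57 (SE), with an edgeR adjusted p of 0.24, a DESeq2 adjusted p of 0.02 and a limma voom adjusted p of 2.42e-04. The lower mean in Ag+Costim rested on Ag replicates 1 and 4, the libraries with the lowest cell cycle level. Without both, a comparison added after the values were seen, the log2 fold change was -0.32 with an edgeR adjusted p of 0.64. Without Ag replicates 2 and 5, it was -2.03 with an edgeR adjusted p of 0.013, in the fit that called 48.8% of all genes.

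Mxd3, the Mxd member found in dividing cells, ran the other way. It stood at 18.8, 115.7, 58.0, 19.4 and 149.0 CPM in Ag and at 113.5, 107.4, 93.8, 110.1 and 113.4 CPM in Ag+Costim. Ag replicates 1 and 4 were lowest, and Ag replicates 2 and 5 were above every Ag+Costim library with TMM factors. With total counts, Ag replicate 2 (105 CPM) fell within the Ag+Costim range (up to 105.6 CPM) and Ag replicate 5 (123.1 CPM) stayed above it. Between the highest and the lowest Ag library Mxd3 differed 7.92-fold, and between the Ag+Costim libraries 1.21-fold. The fold change of 0.58 ± 0.52 (SE) on the log2 scale was within the spread (edgeR adjusted p = 0.49, DESeq2 adjusted p = 0.4). limma voom gave the libraries Ag 2 and Ag 5 weights of 0.0986 and 0.0656, against 0.508 to 3.35 for the others, and with these weights its value was 2.29 (adjusted p = 2.88e-05). Without Ag replicates 1 and 4, the log2 fold change of Mxd3 was 0.0086, and without Ag replicates 2 and 5 it was 1.897 (edgeR adjusted p = 0.0035, in the fit that called 48.8% of all genes).

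**Figure D2:**
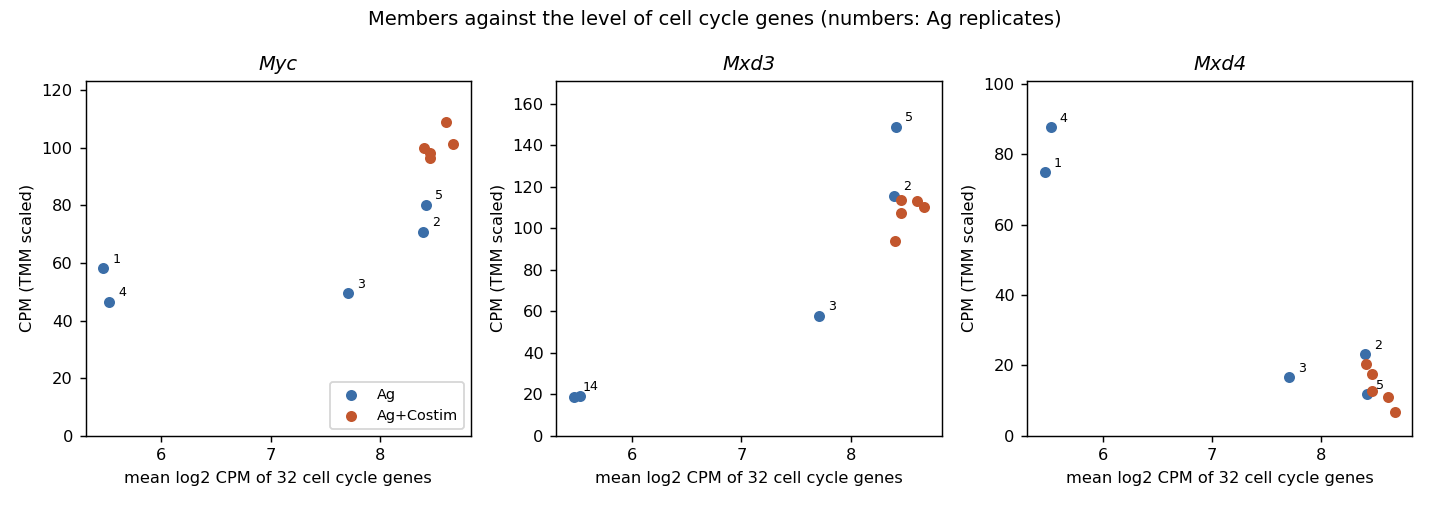
Levels of Myc, Mxd3 and Mxd4 in CPM (vertical axes, linear) are plotted against the mean log2 CPM of 32 cell cycle genes, 1 point for each of 10 libraries, with Ag replicates numbered. Ag replicates 1 and 4, at 5.47 and 5.53 on the horizontal axis, hold the lowest Mxd3 and the highest Mxd4, and all Ag libraries lie below the Ag+Costim libraries for Myc.

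Mxd1, which is known to rise when cells leave the cycle, stood at 22.6, 8.4, 21.2, 25.8 and 15.9 CPM in Ag and at 18.9, 20.9, 17.3, 10.02 and 16.1 CPM in Ag+Costim. The groups overlapped, and the means of 18.8 ± 6.8 and 16.6 ± 4.1 CPM differed by less than the SD of either (log2 fold change -0.17 ± 0.29, SE). Mxi1, also called Mxd2, was low in every library. It stood at 6.5, 8.5, 5.7, 7.6 and 4.7 CPM in Ag and at 6.8, 8.5, 8.9, 7.8 and 6.2 CPM in Ag+Costim, again with overlap (0.21 ± 0.20, SE). Neither was called by edgeR, DESeq2 or limma voom.

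Mnt, the most widely expressed antagonist of Myc, stood at 6.3, 3.9, 8.2, 7.9 and 4.1 CPM in Ag. In Ag+Costim it was at 8.3, 8.1, 8.8, 7.8 and 8.1 CPM, a narrow range that Ag replicates 3 and 4 reached and Ag replicates 1, 2 and 5 did not. Its log2 fold change was 0.44 ± 0.23 (SE), with an edgeR adjusted p of 0.3. Mga stood at 52.0, 31.6, 42.1, 47.8 and 10.5 CPM in Ag and at 30.6, 34.0, 27.5, 30.8 and 34.3 CPM in Ag+Costim. Ag replicates 1, 3 and 4 were above the Ag+Costim range, replicate 2 was within it and replicate 5 was below it. The log2 fold change of -0.23 ± 0.34 (SE) did not pass with edgeR (adjusted p = 0.68), while limma voom gave -0.57 (adjusted p = 0.0072).

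**Figure D3:**
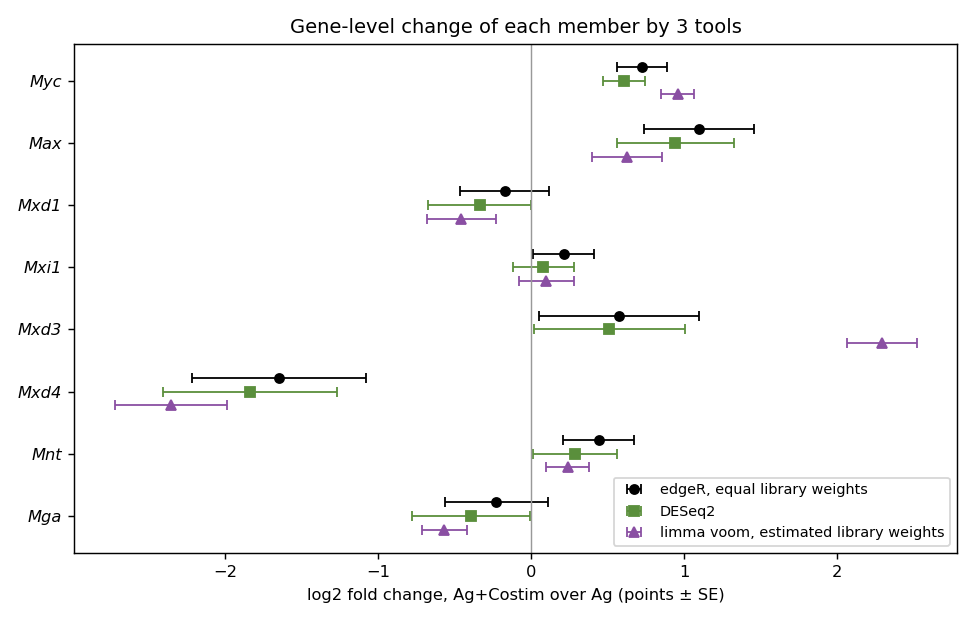
Points give the log2 fold change of each member in Ag+Costim over Ag by edgeR, DESeq2 and limma voom with library weights, and bars give ± SE. Myc and Max lie above 0 and Mxd4 below 0 by all 3 tools, and Mxd3 shows the widest gap between tools, with 0.58 by edgeR and 2.29 by limma voom.

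The choice of scaling shifts these values, though not all by the same amount. From TMM to total counts, the log2 fold change of Mxd3 went from 0.58 to 0.49 and that of Mxd4 from -1.65 to -2.08. Across the 8626 genes whose mean reached 10 CPM, the median log2 fold change was 0.24 under TMM scaling. It was 0.12 under the size factors of DESeq2, 3.76e-04 under total counts and 0.02 under upper quartile scaling. Relative to that TMM median, the log2 fold changes of Max, Myc, Mxd3 and Mnt were 0.86, 0.49, 0.34 and 0.20, and those of Mxi1, Mxd1, Mga and Mxd4 were -0.03, -0.41, -0.47 and -1.89. Mxi1 fell on the other side of 0 under total counts (-0.086) and the upper quartile (-0.03).

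Levels were compared between genes per length of transcript, in counts per kb scaled to the same total in each library. In Ag+Costim, Mxd3 was highest at 106.7 to 130.7, above Myc at 74.4 to 84.96 without overlap. Myc and Max (60.2 to 85.6) overlapped. All other members were far lower, with Mxd1 at 3.41 to 7.39, Mxd4 at 2.65 to 8.18, Mxi1 at 3.74 to 5.54 and Mga at 3.64 to 4.85, and these 4 overlapped. Mnt had the lowest mean, at 2.55 to 2.94. It lay below Mxd1, Mxi1 and Mga without overlap and overlapped Mxd4. In Ag, the order of the means was Mxd3 (79.7 ± 50.1, SD), Myc (52.3 ± 8.1), Max (45.1 ± 34.8), Mxd4 (21.98 ± 20.6), Mxd1 (8.42 ± 4.48), Mga (7.54 ± 4.23), Mxi1 (4.804 ± 1.436) and Mnt (2.43 ± 1.18), and every pair of neighbours overlapped.

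On the same scale, the make-up of the network differed between single Ag libraries more than between the group means. Myc made up 19.3 to 28.9% of the summed level of the 8 members in Ag and 24.5 to 27.8% in Ag+Costim. Mxd3 made up 13.2 and 11.3% in Ag replicates 1 and 4, 43.1% in Ag replicate 3, 54.2 and 64.1% in Ag replicates 2 and 5, and 36.2 to 44.5% in Ag+Costim. Mxd4 made up 18.5 and 18.0% in Ag replicates 1 and 4, 1.87 to 4.33% in the other Ag libraries and 0.96 to 2.77% in Ag+Costim. Hence the ratio of Mxd3 to Mxd4 was 0.71 and 0.62 in Ag replicates 1 and 4, 9.94, 13.4 and 34.3 in Ag replicates 3, 2 and 5, and 13.0 to 46.5 in Ag+Costim.

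**Figure D4:**
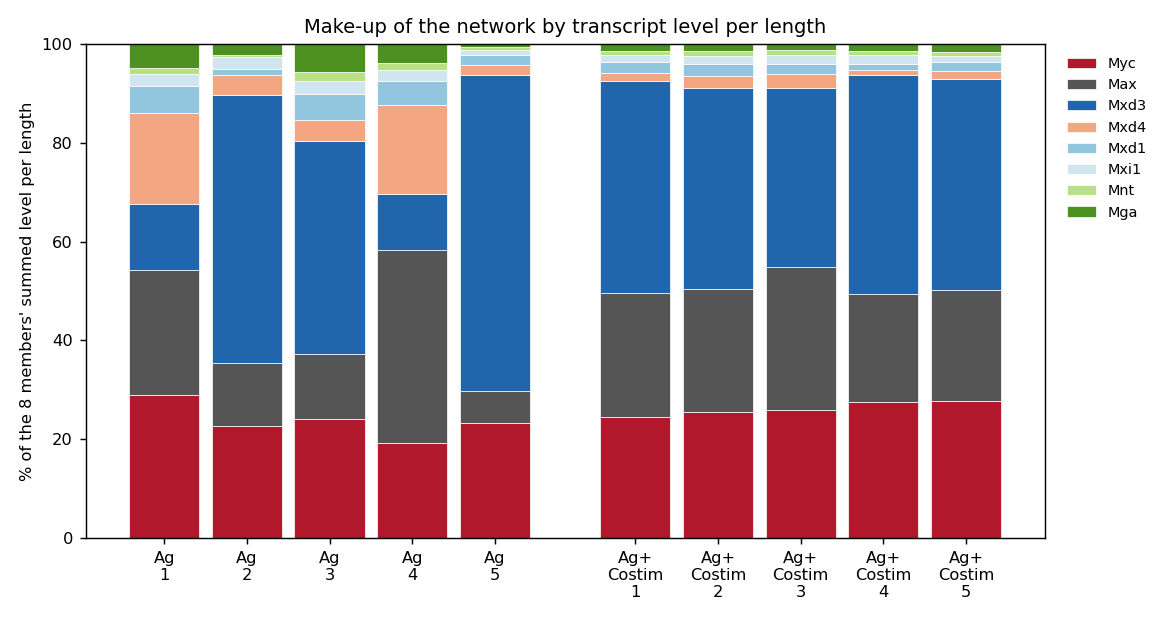
Each bar is 1 library and splits the summed level per length of the 8 members into the percent contributed by each. The 5 Ag+Costim bars are alike, with Mxd3 at 36.2 to 44.5%, whereas Ag replicates 1 and 4 hold 18.5 and 18.0% Mxd4 and little Mxd3.

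The ratio of Myc to Max was 1.14, 1.79, 1.84, 0.49 and 3.52 in the Ag libraries and 0.98, 1.02, 0.89, 1.27 and 1.24 in the Ag+Costim libraries. The latter lay within the wider Ag range and near equal levels per transcript length. Per union exon length, which merges all exons of a gene, Myc was above Max in every Ag+Costim library (1.29 to 1.76). The ratio of Myc to its 6 competitors for Max, summed, was 0.63, 0.35, 0.38, 0.46 and 0.33 in Ag and 0.49 to 0.57 in Ag+Costim. Only Ag replicate 1 exceeded the Ag+Costim range, and the other 4 Ag libraries lay below it. Max amounted to 0.07 to 0.64 of the sum of its partners in Ag and to 0.28 to 0.41 in Ag+Costim. These are RNA levels, and protein was not measured here.

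Among the 10 libraries, the genes most like each member in log2 CPM were found by Pearson's r over 8626 genes with a mean of at least 10 CPM. All correlations share the same 10 libraries, their depth and their group difference, and are given as a description. Mxd3 was most like Ube2t, a ubiquitin-conjugating enzyme of the Fanconi pathway, Stmn1, which destabilises microtubules, and Tuba1a, an alpha-tubulin, each at r = 0.998. Mxd4 was most like Ifi214 (0.985), BE692007 (0.982) and Trim56 (0.982). Myc was most like Dele1 (0.986), Kat2a (0.976), the histone acetyltransferase Gcn5 that Myc recruits, and Pelo (0.968). Max was most like Vps39 (0.963), Ppp4r3b (0.961) and Zfp322a (0.961). Mga was most like Exoc6b (0.986), Mbtd1 (0.971) and Inpp5f (0.966), and Mnt was most like Rnf216 (0.971), Tcf12 (0.965) and Myo1c (0.951). Values for Mxi1 (Aebp2, 0.932, Ccdc88b, 0.904 and Tnks2, 0.902) and Mxd1 (Zfp157, 0.923, St7l, 0.922 and Secisbp2l, 0.916) were lower. Between members, r was lowest for Mxd3 and Mxd4 (-0.894) and highest for Myc and Mxd3 (0.771).

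Next, the genes that work with or under the network were described by list. No list had a gene with an edgeR adjusted p under 0.05. The background for all lists is the same fit. Of the 24262 genes tested, 37.7% had a log2 fold change above 0, with a median of -0.32. Of the 8626 genes that reached 10 CPM, 75.6% did, with a median of 0.24, and 11.3% were higher in Ag+Costim without overlap. Of these 8626, an unadjusted p under 0.05 was found for 1746 higher and 243 lower. DESeq2 called 848 higher (9.83%) and 266 lower, and limma voom called 4970 higher (57.6%) and 1077 lower.

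Many of the 57 Myc target genes serve ribosome assembly, mitochondria and nucleotide supply. The list also holds genes of the cell cycle and DNA replication, such as Plk1, Plk4, Cdk4, Mcm4 and Mcm5. Of the 57 target genes, 55 (96.5%) had a log2 fold change above 0, with a median of 0.61. In 14 of them (24.6%) all Ag+Costim libraries were above all Ag libraries, and in 0 were they below. An unadjusted p under 0.05 was found for 26 higher and 1 lower. DESeq2 called 13 higher (22.8%) and 1 lower, and limma voom called 55 higher (96.5%) and 1 lower. Tbrg4, a mitochondrial RNA factor, stood at 17.7 ± 5.3 CPM in Ag, against 33.4 ± 3.8 CPM in Ag+Costim. Pprc1, a coactivator of mitochondrial genes, went from 36.5 ± 10.9 to 64.6 ± 6.7 CPM, and Tcof1, which aids rRNA transcription, from 186.3 ± 48.1 to 315.3 ± 29.6 CPM, none of the 3 with overlap. The phosphatase gene Dusp2 was the one lower target above 10 CPM (37.1 ± 13.3 and 30.6 ± 10.7 CPM). Map3k6, a kinase at 0.67 ± 0.53 and 0.18 ± 0.07 CPM, was the other and the one that DESeq2 called lower. Together, 2 targets lay under 10 CPM. The mean log2 CPM of the target list was 4.84 and 4.87 in Ag replicates 1 and 4, 5.68 in Ag replicate 3, 6.2 and 6.3 in Ag replicates 2 and 5, and 6.24 to 6.53 in Ag+Costim. It thus ordered the Ag libraries as the cell cycle genes did, and the target list itself holds genes of the cell cycle and DNA replication. Without Ag replicates 1 and 4, the target median was 0.30, against 0.15 for genes that reached 10 CPM. Without Ag replicates 2 and 5, the medians were 1.29 and 0.59. Of the 52 targets with a RefSeq promoter, 15 (28.8%) held CACGTG within the window, against 2187 (8.09%) of 27025 gene symbols.

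Of 20 further metabolic targets, 19 (95%) had a log2 fold change above 0 (median 0.67) and 5 (25%) were higher without overlap. These were Cad, Ncl, Tfrc, the amino acid transporter Slc7a5 and Tfap4. Among the genes that reached 10 CPM, the shares were 75.6% and 11.3%. Cad, which starts pyrimidine synthesis, was at 77.4 ± 36.7 CPM in Ag, against 184.7 ± 31.1 CPM in Ag+Costim. Ncl, the nucleolar protein nucleolin, was at 559 ± 232 and 1092 ± 147 CPM, and Tfrc, the transferrin receptor, at 29.3 ± 14.3 and 64.5 ± 13.8 CPM. Slc7a5 was at 48.6 ± 34.4 and 117.8 ± 13.3 CPM. Ccnd2, encoding cyclin D2, was the one below 0 (297.7 ± 163.1 and 235.1 ± 10.2 CPM), and its groups overlapped. All 32 cell cycle genes had a log2 fold change above 0, with a median of 0.95, and 10 (31.25%) were higher without overlap, including Mki67, Foxm1 and Cdt1. limma voom called all 32 higher and DESeq2 called 2 (6.25%), against 57.6% and 9.83% of the genes that reached 10 CPM. Of 12 genes that Myc is known to repress, 7 (58.3%) were above 0 and 0 separated the groups. Btg1, an antiproliferative factor, was at 344 ± 291.3 CPM in Ag, against 101.2 ± 38.9 CPM in Ag+Costim (log2 fold change -1.76, edgeR adjusted p = 0.23, DESeq2 adjusted p = 0.011). Txnip and Btg2 were lower too (-0.69 and -0.58), and Ndrg1, Cdkn2c and Gadd45b were higher (0.63, 0.66 and 0.45), none with an adjusted p under 0.05 by edgeR or DESeq2, while 3 genes of the list lay under 10 CPM.

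Among the genes that reached 10 CPM, 75.6% were above 0 and 11.3% were higher without overlap. Among 20 partners and cofactors, 17 (85%) were above 0 (median 0.41) and 3 (15%) were higher without overlap. These were Kat2a (53.0 ± 12.7 and 84.9 ± 3.9 CPM), Sin3a, the scaffold that the Mxd proteins bind (52.8 ± 7.3 and 78.3 ± 8.9 CPM), and Kat5, an acetyltransferase of the TRRAP complex (40.0 ± 5.2 and 55.8 ± 3.4 CPM). DESeq2 called the same 3. The lower members Brms1, Trrap and Ncor1 had log2 fold changes of -0.30, -0.07 and -0.02. Of the 13 partners of Mga in PRC1.6, 11 (84.6%) were above 0 (median 0.43). E2f6, a repressor of the E2F family, was at 27.9 ± 11.1 and 44.6 ± 4.5 CPM, and Wdr5 at 63.8 ± 34.6 and 101.6 ± 9.1 CPM, both with overlap. Cbx3, a heterochromatin protein that is also in the target list, was at 109.1 ± 45.6 and 188 ± 22.8 CPM without overlap. Tfdp2 was lower (log2 fold change -0.21).

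For comparison, 75.6% of the genes that reached 10 CPM were above 0 and 11.3% were higher without overlap. Of 18 genes that set Myc protein turnover, 13 (72.2%) were above 0 (median 0.32) and 3 (16.7%) were higher without overlap. One of these, Skp2, a ubiquitin ligase subunit that acts on Myc, was at 13.8 ± 6.6 CPM in Ag, against 31.5 ± 5.1 CPM in Ag+Costim (log2 fold change 1.19, edgeR adjusted p = 0.19, DESeq2 adjusted p = 0.013). Usp36, a nucleolar deubiquitinase of Myc, was at 29.2 ± 2.6 and 36.5 ± 2.1 CPM, and Cip2a, which protects Myc from a phosphatase, at 54.9 ± 36.8 and 115 ± 11.9 CPM. Gsk3a, at 33.9 ± 6.5 and 50.4 ± 14.9 CPM, overlapped. Cip2a falls outside the rule for named genes and was chosen after its values were seen, as were Map3k6, Slc7a5 and Tfap4. Fbxo32 had a log2 fold change of -1.17 (edgeR adjusted p = 0.25, DESeq2 adjusted p = 0.033), Usp7 of -0.19 (DESeq2 adjusted p = 0.012) and Ppp2r5a of -0.16. The last list holds 8 genes: the Myc paralogs Mycn and Mycl, the glucose-sensing arm that pairs with Mlx in place of Max (Mlx, Mlxip and Mlxipl), and the E-box factors Usf1, Usf2 and Tfap4. In this list, 2 of 8 genes (25%) were above 0. One was Tfap4, which is also a Myc target, at 1.5 ± 0.7 and 3.34 ± 0.54 CPM without overlap (DESeq2 adjusted p = 0.023). Mlx, the other, was at 70.5 ± 19 and 81 ± 3.1 CPM and Mlxip at 34.0 ± 12.1 and 27.9 ± 4.1 CPM. Usf1 and Usf2 had log2 fold changes of -0.02 and -0.29, and 4 of the 8 genes lay under 10 CPM.

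Transcript usage was tested with edgeR's diffSpliceDGE on the estimated transcript counts. Of 10441 genes tested, 31 (0.297%) were called at a gene-level adjusted p under 0.05 with a share change over 0.1. None of the 7 members tested was among them, and Mnt was left with 1 transcript and was not tested. Mnt-201 held 99.8 to 100% of its counts in every library. Myc-206, Myc-201 and Myc-205, which are all protein-coding, held 48.4 ± 8.6, 24.6 ± 3.8 and 19.2 ± 2.0% in Ag and 49.1 ± 1.9, 24.0 ± 0.4 and 19.7 ± 1.3% in Ag+Costim (SD, n = 5). Hence the mean mix of Myc transcripts differed by less than 1 percentage point.

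Max-202, with the 27-base exon, held 47.0, 66.7, 58.2, 61.4 and 48.5% of the counts of Max in Ag and 51.0, 57.4, 55.6, 55.7 and 55.3% in Ag+Costim. Max-201, without the exon, held 50.3, 31.6, 32.9, 34.7 and 48.8% and 47.0, 40.9, 43.0, 43.9 and 44.0%. The Ag+Costim values lay within the Ag range for both. The authors' percent spliced in (PSI) per group, from a separate count of junction reads, gave the same exon 0.308 in Ag and 0.256 in Ag+Costim, a difference of -0.05. Inclusion from transcript counts was 58.5 ± 8.9% in Ag and 55.6 ± 2.2% in Ag+Costim. Both measures were lower in Ag+Costim by a few percentage points, but they disagreed on the level, and the difference by transcript counts was smaller than the SD of Ag.

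Mxi1 varied most between libraries. Mxi1-203 held 67.6, 88.4, 70.3, 61.0 and 52.3% of its counts in Ag and 68.1, 64.5, 73.6, 52.4 and 38.0% in Ag+Costim, and Mxi1-201 held 10.9, 8.5, 23.8, 26.7 and 46.5% and 21.6, 29.02, 19.7, 41.3 and 55.5%. PSI of the first exon of Mxi1-203 was 0.852 in Ag and 0.747 in Ag+Costim. By transcript counts the share of transcripts that begin there was 75.9 ± 15.2% and 66.1 ± 14.5%, a difference in the same direction that was smaller than either SD. The Simes p for Mxi1 was 0.86 before adjustment (BH 1).

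**Figure D5:**
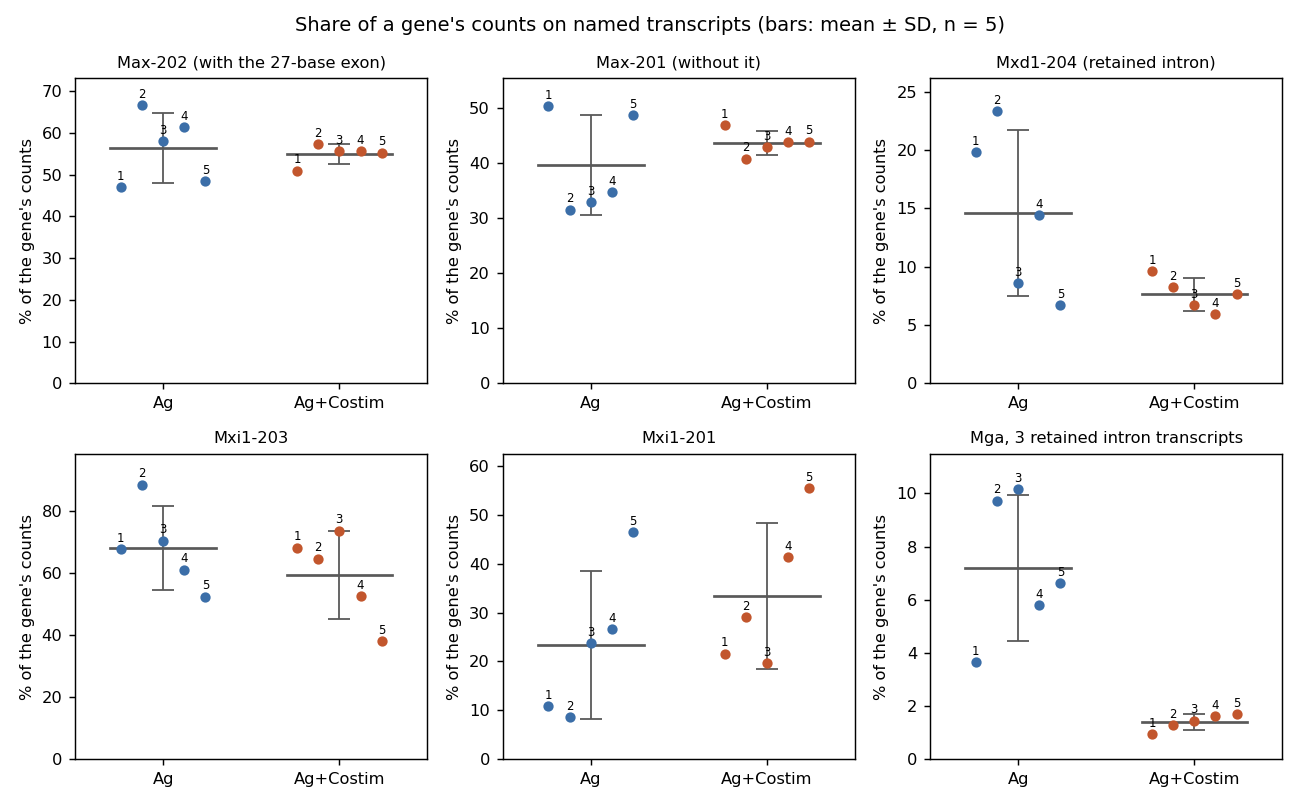
Points give the percent of a gene's counts on the named transcripts in each library, numbered by replicate, with the mean and SD of 5 libraries. The groups overlap for Max, Mxd1 and Mxi1, and the summed retained intron transcripts of Mga lie at 3.65 to 10.2% in Ag and at 0.94 to 1.68% in Ag+Costim.

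Mga-204 held 89.1 to 95.8% of the counts of Mga in Ag and 96.5 to 97.9% in Ag+Costim, without overlap. By diffSpliceDGE its unadjusted usage p was 0.88, and the gene-level Simes p of Mga was 0.059 (BH 0.81). How many transcripts of other genes separate the groups was not counted. The rest of the counts of Mga lay mostly on transcripts annotated as retained intron. Summed, these held 3.65, 9.74, 10.2, 5.78 and 6.62% in Ag and 0.94, 1.29, 1.44, 1.599 and 1.68% in Ag+Costim. Mga-210, named here after its values were seen, had the largest part of this (2.62 to 9.57% and 0.47 to 1.502%), with an unadjusted usage p of 0.017 and a BH of 0.80. Max-203, the retained intron transcript of Max, was also higher in Ag without overlap, at 0.78 to 6.23% and 0.06 to 0.30% (also chosen after its values were seen, BH 0.79). Its 6.23% was in Ag replicate 3 alone, against 0.78 to 1.68% in the other Ag libraries, which were not ordered as for Mga. Mxd1-204 held 19.8, 23.3, 8.6, 14.4 and 6.7% in Ag and 9.6, 8.3, 6.7, 5.9 and 7.6% in Ag+Costim. Retained intron transcripts of Mxd3 (2.27 to 14.6% and 4.10 to 7.44%) and Mxd4 (4.32 to 15.8% and 4.64 to 8.61%) overlapped, with the highest values of Mxd3 in Ag replicates 1 and 4. Over all protein-coding genes such transcripts took 5.56, 2.82, 4.14, 5.36 and 2.25% of counts in the Ag libraries and 2.57 to 3.22% in Ag+Costim. In Ag replicates 2 and 5 the Mga share was 9.74 and 6.62%, and the overall share 2.82 and 2.25%. The relation of the Mga share to the overall share was not tested. These counts do not tell unspliced RNA from a retained intron in a finished transcript. The protein-coding transcripts Mxd1-201, Mxd3-201 and Mxd4-201 held 84.9 ± 6.8, 91.6 ± 5.5 and 88.4 ± 3.6% in Ag and 92.2 ± 1.2, 94.5 ± 1.6 and 92.3 ± 1.8% in Ag+Costim.

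The PSI table held 69 events in the 8 members, 27 of them in Mga and 13 in Myc. A difference over 0.05 in size was found for 5 (3 in Mga and 1 each in Max and Mxi1), against 16550 (11.9%) of the 138940 events in all genes. The table holds 1 PSI per group and event, so no spread between libraries can be given, and the authors' probability column was not used. The 624-base exon of Mga went from 0.973 in Ag to 0.869 in Ag+Costim, and the exons at chr2:119916431-119917373 and chr2:119919812-119919907 went from 0.911 to 0.972 and from 0.921 to 0.99. By transcript counts, the 624-base exon was included at 99.98 ± 0.05% and 99.8 ± 0.18%, so the size of the PSI difference was not seen there, and no annotated transcript skips the other 2 exons. In the remaining members the event with the largest difference stayed under 0.05. These were the tandem start of Mxd4 at chr5:34187510-34187710 (0.782 and 0.737), a tandem start of Myc (0.075 and 0.039), a 42-base exon of Mnt (0.853 and 0.874) and 30-base exons of Mxd1 (0.988 and 0.992) and Mxd3 (0.9987 and 0.9997).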

How the data were processed

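The members and gene lists were chosen with earlier results of these data known. Reads were aligned by the authors to mm10 with HISAT2 2.1.0 and counted with StringTie 2.1.0. The deposited gene and transcript values are expected counts, estimated from coverage, rounded and not normalized. The authors' PSI values are deposited as a fraction, 1 per event and group, from Whippet. Columns with the authors' PSI differences and probabilities were not used. All 55536 gene identifiers matched GENCODE M21, and 26345 entries without an annotated gene (at most 0.308% of counts) were left out.

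The test for gene counts was that of edgeR 4.0.16 (R 4.3.3; quasi-likelihood F, genes kept by filterByExpr with groups, TMM factors), with BH adjustment over all 24262 genes and a threshold of 0.05. DESeq2 1.42.0 and limma 3.58.1 were alternatives. On simulated data for this comparison with 24262 genes, 84% of 4-fold and 0% of 2-fold changes were recovered. The simulation gave all genes of a group the same dispersion and drew the libraries independently. The real Ag libraries were less even and shifted together in many genes, so these rates do not give the power in the real data. Transcript usage was tested with diffSpliceDGE. In a simulation of 3000 genes, the shares of the most abundant transcripts were swapped in 200 genes. Only the 159 with large share changes, well over the threshold of 0.1, were scored, and 93.7% of these were recovered. The rate does not cover smaller changes, and all simulated transcripts had the same dispersion. PSI group letters were matched to sample titles. Of 34 core exons with large differences in PSI (over 0.2) and in transcript-based inclusion (over 0.1), 28 had the same direction. From each list, up to 3 genes per direction with the lowest unadjusted p at 10 CPM or more were named, and transcripts with a share of at least 10%. In the events, the ones past 0.05 or the largest per member were named. Sequences are from GENCODE M21 transcripts and RefSeq promoters. The planned comparison with Naive was not run. Counting precision rests on coverage-derived values, so no counting interval is given.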

Additional observations from a re-analysis of the deposited data

Results flagged for a closer look

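In 72 groups of 5 values (members, named transcripts, retained intron shares and list levels), 4 values stood apart from the other 4 by more than 0.71 of the group's range, a gap that chance gives in about 1 of 20 groups. At that rate, 72 groups give about as many such values as were found. All 4 were in Ag replicate 3, the library with the lowest total. Myc-201 held 31.4% of the counts of Myc there, against 22.1 to 23.3% in the other Ag libraries, and Myc-205 held 22.9%, against 18.2 to 18.7%. Both are shares of the same gene, so they are not independent. The retained intron transcript of Max held 6.23%, against 0.78 to 1.68%, and that of Mxi1 held 0.98%, against 0.03 to 0.06%. Erythroid markers were also highest in this library. The part of depth and of other cells in these 4 values was not tested.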

How the results depend on the processing

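Myc, Max, Mxd3, Mxd4 and Mnt kept their direction in all 19 alternatives run for each. Mxd1 reversed with no filter (0.18) and without Ag replicates 1 and 4 (0.15), Mga reversed in the same settings (0.13 and 0.18), and Mxi1 reversed with total counts (-0.0864) and the upper quartile (-0.0298). The number of members called was 0 with edgeR, 2 with DESeq2, 5 with limma voom and 4 (Myc, Mxd3, Mxd4 and Mga) without Ag replicates 2 and 5, and over all genes it was 0, 8046, 12632 and 16322. Members without overlap numbered 1, against 3 with no filter, 4 without Ag replicates 2 and 5, 2 without Ag replicates 1 and 4, and 1 to 3 with single libraries left out. Of all genes, 5.6% did not overlap, against 5.1%, 52.6%, 9.45% and 5.35 to 13% in these settings. Myc was among them each time. Added were Max and Mnt with no filter or without Ag+Costim 4, Mxd3, Mnt and Mga without Ag 2 and 5, Max without Ag 1 and 4 or Ag 4 alone, and Mnt without Ag 2 alone. The median of the Myc targets was 0.61, 1.32 with limma voom and 1.29 without Ag replicates 2 and 5. Changed transcript usage was called in 31 genes, in 143 with diffSplice of limma, in 19 with a minimum of 50 counts in 5 libraries and in 33 to 92 with single libraries left out, and in 0 members throughout. With a PSI threshold of 0.1 in place of 0.05, 2 events in place of 5 were counted, and for the 624-base Mga exon the difference was -0.18 percentage points by transcript counts. The ratio of Myc to Max differed by -0.44 on the log2 scale per transcript length and by -0.54 per union exon length. The cause of these changes was not tested.

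The labels do not say whether the replicate numbers pair the libraries. The correlation of same-numbered deviations from the group mean was 0.251, 0.133, -0.102, -0.303 and 0.117. Libraries with different numbers were not compared, so these values cannot show whether the numbers pair. With the replicate block, 0 genes and 0 members were called, the log2 fold change of Myc was 0.75, and 30 genes had changed transcript usage. The fits without Ag replicates 2 and 5, and 1 and 4, were added after the data were seen. The large spread among Ag libraries limits what 5 libraries can show, and no counting interval could be given.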
